A study of Mus musculus with 38 samples.

Results

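Gene transcription was compared between the at-risk myocardium of mice studied 96 h after ischemia and reperfusion (I/R) and the myocardium of sham mice studied at the same time. The 12 mice were chosen by their sample labels, as 5 sham and 7 LAD mice among the 38 mice of the series, and all 21 target assays of the qRT-PCR panel are reported. All animals were male C57BL/6N mice, 8 to 10 weeks old. In LAD mice the left anterior descending coronary artery was occluded for 30 min and then reopened, and empty solid lipid nanoparticles (SLN), without drug, were given when flow returned. Sham mice had the same operation without closure of the vessel, and whether they received empty SLN is not given in the sources used here. The labels name the left ventricle as the tissue of both groups and, for LAD mice, the at-risk area, which is the territory of the closed artery. Occlusion and the sampled region differ between the groups, and empty SLN may differ too, so their shares in a difference cannot be told apart. The RNA came from pieces of whole tissue, in which fewer cells of a type and less RNA per cell cannot be told apart either.

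Reopening a coronary artery rescues muscle that is still alive and also injures it further. In the days that follow, the surviving myocardium is remodeled, its myosin heavy chain genes are regulated anew and its use of fatty acids as fuel changes. Fatty acids enter the heart muscle cell through surface carriers, are stored in lipid droplets or passed into mitochondria by carnitine palmitoyltransferases, and are burned there by acyl-CoA dehydrogenases, and many of these genes are controlled by the PPAR family of nuclear receptors and their co-activator PGC-1α.

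The panel was built around this chain. It covered the α and β myosin heavy chains (MYH6, MYH7), the PPARs and PPARGC1A, the lysosomal regulator TFEB and the autophagy receptor SQSTM1. It also covered the lipid carriers VLDLR, CD36, FABP3 and SLC27A1, the mitochondrial genes CPT1A, CPT1B, UCP3, ACADM and ACADL, and the lipid mobilization and droplet genes LIPE, PLIN2, PLIN4 and PLIN5. The deposited readings are listed by plate code (A01 to B09), and no table used here pairs a code with a gene. Each assay is therefore reported by its code, none is assigned to a gene or a pathway, and the labelled tissue could not be checked against its markers.

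Each value is a difference from a reference assay, code B10, whose reading is listed directly below every target. B10 was taken as RPLI, the only endogenous control that the methods name, and since every result rests on it, its primer pair is shown, 5′ to 3′, as the primer table gives it. Each primer has 18 bases, 11 of them G or C.
RPLI forward: ctcggccgttctcctgta
RPLI reverse: gtggaagtggggcttcag

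A reading is a threshold cycle (Ct), the amplification cycle at which the fluorescence passes a set level, so that less transcript gives a later Ct. For relative expression, the target Ct was taken off the reference Ct, which gives a log2 scale if every cycle doubles the product. Relative quantity was the same value as a ratio to the sham mean. Of the 252 possible pairs of a target and a reference reading, 185 were filled (75 of 105 for sham and 110 of 147 for LAD), which left 3 to 5 sham and 4 to 7 LAD mice for an assay. The number of wells behind a reading and the reason for empty places are not given in the sources used here, so the technical error is unknown. Target Ct lay between 14.3 and 35.2 with a median of 28.6, and 2 readings were above 35.

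On average over assays, the reference itself was read later in LAD mice. When the readings of each sample number were averaged, its Ct was 25.0 ± 0.462 (SD, n = 5) in sham and 25.8 ± 0.517 (SD, n = 7) in LAD mice, a difference of 0.83 cycles (exact permutation test, two-sided, p = 0.0126). A sample number had readings beside 8 to 21 assays, so these averages also differ in the assays they cover. With the median over assays in place of the mean the difference was 0.329 cycles (exact permutation test, p = 0.341). Assay by assay, the reference came later in LAD in 18 of 21 assays, by -1.38 to 2.85 cycles, and in none of them with p under 0.05 (exact permutation test, lowest p = 0.0667). Within the LAD mice of a single assay it spanned 0.465 to 9.93 cycles, with a median span of 4.58, against 0.772 to 4.31 and a median of 3.40 in sham. Of 122 distinct reference readings, 46 were listed beside more than 1 assay, and 34 of these stood under different sample numbers. Thus it is not shown that a sample number is the same mouse in every assay. The averages by sample number can hold the same reading under different numbers. Their p-values, from the exact permutation test, therefore rest on units that are not shown to be separate mice. The main tests of the targets compare mice within an assay. The recurring readings were never shared by both groups and never recurred within an assay.

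**Figure D1:**
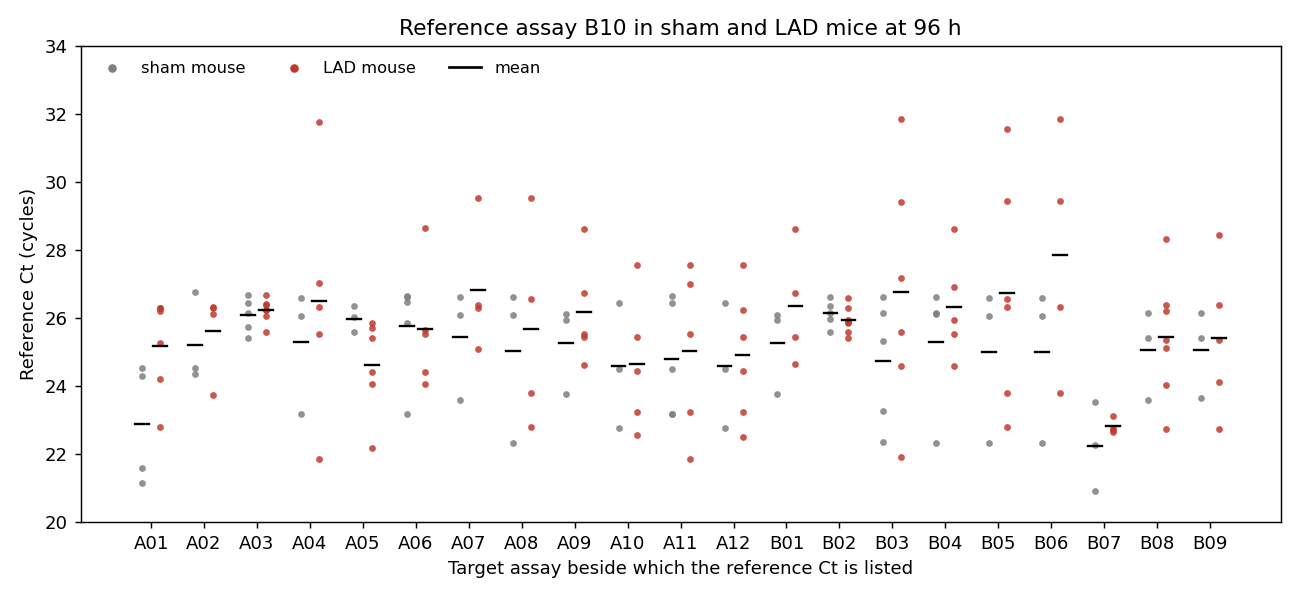
Reference Ct (cycles, vertical axis) listed beside each of the 21 target assays (horizontal axis) in sham (grey) and LAD mice (red) at 96 h; each point is a mouse and each bar a group mean. The LAD mean was the later one in 18 assays, and the readings beside A03 and B02 lie closer together in both groups than those beside most other assays.

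At 96 h more assays fell than rose in LAD mice. With a two-sided exact permutation test for each assay at an unadjusted p under 0.05, the threshold level used by the study, 12 of 21 assays differed (57.1%). Expression fell in 9 assays (42.9%), namely A05, A06, A09, A10, A11, A12, B05, B08 and B09, and rose in 3 (14.3%), namely A01, A03 and B02. The median log2 difference over all 21 assays was -1.17, within a range from -4.30 in B08 to 3.50 in A01. In 13 assays (61.9%) the groups did not overlap, with LAD the lower group in 11 (52.4%) and the higher in 2 (9.52%).

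The number of mice limited these tests. The exact p is 2 times the smaller tail, and each lowest possible p given here is for that choice. For 6 assays, with 3 sham and 4 LAD mice, it cannot be below 0.0571. Of these, 4 (A02, A08, B06 and B07) stood at that limit with every LAD mouse below every sham mouse. With the p of the absolute difference, A02, A08 and B07 had p = 0.0286 and B06 p = 0.0571 (exact permutation test). After Benjamini-Hochberg adjustment over the 21 assays, 0 exact tests (0%) passed, the lowest adjusted p being 0.05 in A01, A03, A11 and B02. Limma was fitted over all 38 mice, which include LAD mice treated with Myriocin, and borrows the spread across groups and assays. With it, 16 assays (76.2%) passed at an adjusted p under 0.05, with 3 higher and 13 lower. These included all 12 named above, and the other 4 were A02, A08, B06 and B07. Fitted to the 12 mice of this comparison alone, limma also called 16 assays, with 3 higher and 13 lower.

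**Figure D2:**
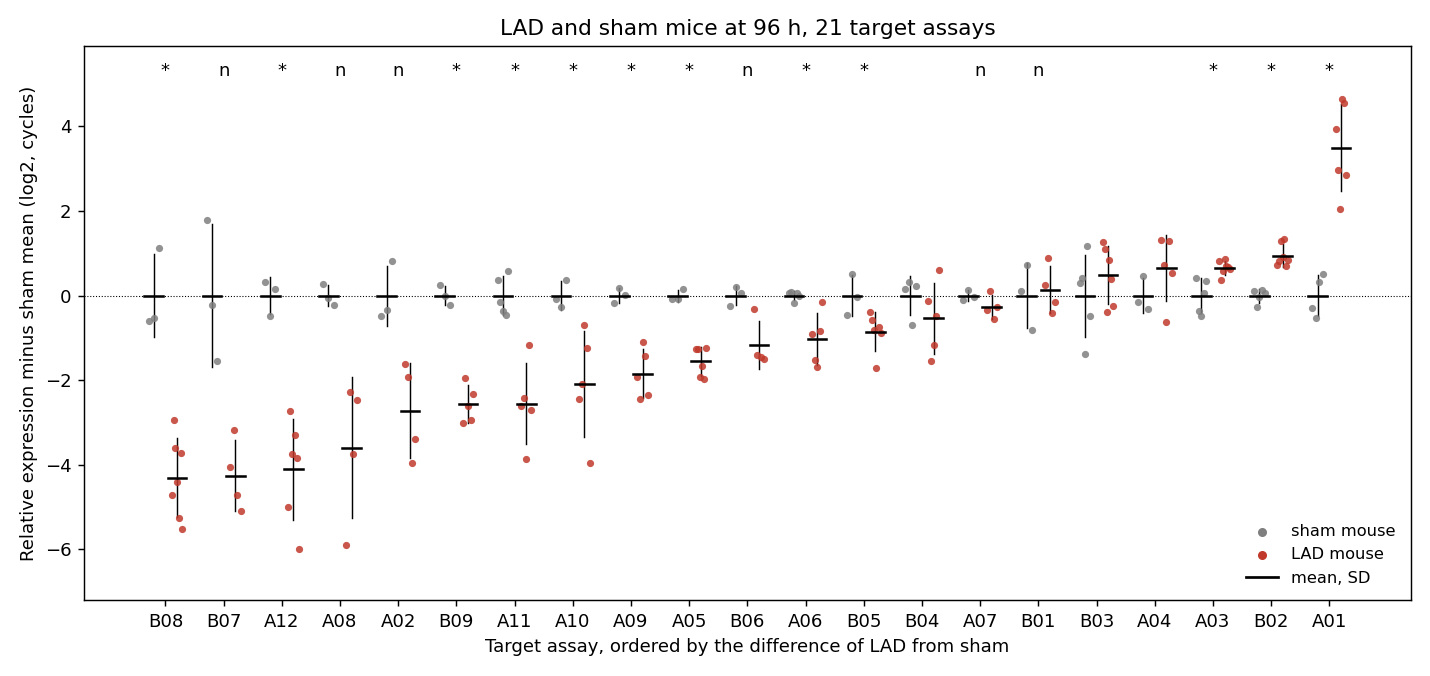
Relative expression minus the sham mean (log2, vertical axis) for each target assay (horizontal axis, ordered by the LAD minus sham difference) in sham (grey) and LAD mice (red) at 96 h, with the mean and SD of each group; a star marks an exact p under 0.05 and n an assay whose mouse numbers cannot reach it. The plot runs from B08, with a difference of -4.30, to A01, with 3.50, and the LAD mice scatter more than the sham mice in 15 of the 21 assays.

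A01 was the assay with the largest rise. Relative expression was -4.55, -4.76, -3.93 and -3.73 in the 4 sham mice and ran from -2.19 to 0.40, with a median of -0.78, in the 6 LAD mice. All LAD mice were above all sham mice, with a gap of 1.54 between the groups. The difference of 3.50 was an 11.3-fold rise (exact permutation test, p = 0.00952, the lowest value 4 against 6 mice can give; limma 95% interval 2.31 to 4.69). The LAD mice had relative quantities from 4.14 to 25.0, so the size of the rise varied widely among them. Counted in cycles, much of the difference came from the reference, which was read 2.29 cycles later in LAD mice beside A01. The A01 target itself came 1.21 cycles earlier (exact permutation test on target Ct, p = 0.371). Such a split does not show which transcript changed, since a raw Ct is not adjusted for the amount of cDNA.

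B02 and A03 rose less, with LAD mice that lay close together. For B02 the sham mice had -5.17, -5.54, -5.30, -5.13 and -5.21, and the LAD mice -4.58 to -3.92 with a median of -4.44. Every LAD mouse was above every sham mouse, and the difference of 0.94, a 1.92-fold rise, had p = 0.00253 in the exact permutation test, the lowest that 5 against 7 mice allow. For A03 the sham mice had -4.56, -5.33, -5.46, -4.91 and -4.64, and the LAD mice -4.62 to -4.12 with a median of -4.32. Here the groups met at their edges, where 1 sham mouse stood above the lowest LAD mouse by 0.06. The A03 difference was 0.66, a 1.58-fold rise (exact permutation test, p = 0.00505). In both assays the target Ct alone moved the same way, 1.13 cycles earlier in LAD for B02 (exact permutation test, p = 0.00505) and 0.52 cycles earlier for A03 (p = 0.0227), with reference differences of -0.19 and 0.14 cycles.

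Among the assays that passed the exact test, B08 and A12 fell most. For B08 the sham mice had 2.49, 2.55 and 4.21, and the LAD mice -2.42 to 0.15 with a median of -1.33. The groups were 2.34 apart, and the mean difference of -4.30 made the sham level 19.7-fold the LAD level (exact permutation test, p = 0.0167, the lowest possible with 3 against 7 mice). LAD relative quantity was 0.0605 ± 0.0389 (SD, n = 7). For A12 the sham mice had 8.07, 7.26 and 7.91, and the LAD mice 1.75 to 5.02 with a median of 3.96. These groups were 2.24 apart and differed by -4.10, a 17.2-fold higher level in sham (exact permutation test, p = 0.0238, the lowest possible). Both falls were present in the target Ct alone, which came 4.70 cycles later in LAD for B08 (exact permutation test, p = 0.0167) and 4.42 cycles later for A12 (p = 0.0238).

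B07, A08 and A02 were lower in LAD mice by limma, and at the limit of the exact test for their numbers of mice. The B07 readings were -5.51, -7.51 and -8.84 in sham and -11.35, -10.46, -12.00 and -12.37 in LAD mice. The sham mice of B07 were themselves spread over 3.34 log2 units, yet the groups were 1.62 apart. The difference was -4.26, 19.2-fold (exact permutation test, p = 0.0571; limma, adjusted p = 4.64e-07). The B07 target was read late in LAD mice, at Ct 33.6 to 35.1 of 40 cycles. With Ct above 35 left out, the B07 difference was -3.98 (exact permutation test, p = 0.1, the lowest possible for the mice left). A08 had -1.91, -2.24 and -2.41 in sham and -8.07, -4.46, -5.93 and -4.66 in LAD, where the first mouse stood well below the other three. Its difference of -3.59 was 12.1-fold (exact permutation test, p = 0.0571; limma, adjusted p = 0.000156). A02 had 10.05, 10.19 and 11.34 in sham and 8.92, 8.61, 6.58 and 7.14 in LAD. No values overlapped, and the difference of -2.72 was 6.57-fold (exact permutation test, p = 0.0571; limma, adjusted p = 2e-05).

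A middle group of 4 assays fell by 1.84 to 2.57 on the log2 scale, each without overlap and each at the lowest p its mice allow. A11 was 2.63, 2.12, 1.91, 1.81 and 2.84 in sham and -0.35, -0.16, -1.60, 1.09 and -0.45 in LAD mice. The fourth LAD mouse lay 0.72 under the lowest sham mouse and the others further down, and the mean fell by 2.56, a 5.89-fold lower level (exact permutation test, p = 0.00794). B09 was 2.61, 2.35 and 2.14 in sham against -0.65, 0.41, -0.24, -0.59 and 0.05 in LAD. All LAD mice were well below the sham mice, with a relative quantity of 0.175 ± 0.0557 (SD, n = 5) and a difference of -2.57 (exact permutation test, p = 0.0357).

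A10 and A09 differed in how far the LAD mice spread. In A10 the sham mice had -4.00, -4.19 and -3.54 and the LAD mice -6.36, -6.01, -4.60, -5.14 and -7.86, so that LAD relative quantities ran from 0.0644 to 0.617. In A09 the sham mice had -1.04, -0.69 and -0.85 and the LAD mice -2.79, -3.29, -1.95, -2.29 and -3.20, with relative quantities from 0.185 to 0.471. The means fell by 2.09 in A10 and by 1.84 in A09, 4.25-fold and 3.59-fold (exact permutation test, p = 0.0357 in each). Of these 4 assays, A11 alone also passed on the target Ct, which was 2.80 cycles later in LAD (exact permutation test, p = 0.0476).

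The smaller falls were those of A05, B06, A06 and B05. A05 was -0.59, -0.60 and -0.35 in sham and -2.48 to -1.75, with a median of -1.98, in LAD mice. The groups were 1.16 apart, with a difference of -1.56, 2.94-fold (exact permutation test, p = 0.0238, the lowest possible). The A05 target was read 0.18 cycles later in LAD (exact permutation test, p = 0.786), while its reference was read 1.38 cycles earlier, against the direction of 18 other assays. Counted in cycles, nearly all of the A05 difference thus came from the reference. As for A01, this split does not show which transcript changed.

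B06 was -1.71, -1.26 and -1.39 in sham and -1.77, -2.84, -2.90 and -2.96 in LAD. One LAD mouse was only 0.06 below the lowest sham mouse, and the difference was -1.17 (exact permutation test, p = 0.0571, the lowest possible; limma, adjusted p = 0.00957). A06 varied little in sham, at -4.40, -4.37, -4.63, -4.38 and -4.47, and more in LAD, at -5.36, -5.97, -6.14, -5.28 and -4.59. The last LAD mouse fell among the sham mice, and the difference was -1.02, 2.03-fold (exact permutation test, p = 0.0159). B05 was -3.67, -2.70 and -3.25 in sham and -4.92 to -3.59, with a median of -3.99, in LAD, again with an overlap. Its difference of -0.85, 1.81-fold, had the highest p of the 9 falls (exact permutation test, p = 0.0476). The B05 call ended in 8 of 12 fits with 1 mouse left out (exact permutation test, highest p = 0.143). Without LAD mouse 4 the p was 0.0714 in that test.

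The remaining 5 assays did not pass either test. B04 was -3.17, -3.01, -4.02 and -3.09 in sham and -3.45, -4.86, -4.48, -3.80 and -2.72 in LAD, a difference of -0.54 (exact permutation test, p = 0.286; limma 95% interval -1.41 to 0.33). A04 was -2.24, -1.63 and -2.40 in sham and -0.78, -1.36, -2.71, -0.81 and -1.55 in LAD. Its difference of 0.65 had p = 0.286 in the exact permutation test, with a limma 95% interval of -0.12 to 1.41. In both assays the LAD values extended beyond the sham values at each end, and beside A04 the LAD reference readings spanned 9.93 cycles, the widest of the panel.

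B03 was -3.11, -2.98, -4.78, -2.24 and -3.88 in sham and -3.78 to -2.15, with a median of -2.79, in LAD. Most LAD mice lay inside the sham range, and the difference of 0.49 had a limma 95% interval of -0.27 to 1.25 (exact permutation test, p = 0.338). A07 was -4.24, -4.00 and -4.18 in sham and -4.49, -4.03, -4.71 and -4.40 in LAD, and B01 was -6.74, -6.12 and -7.66 in sham and -6.59, -5.96, -7.26 and -6.99 in LAD. The differences were -0.27 for A07 (limma 95% interval -0.90 to 0.36) and 0.14 for B01 (-0.80 to 1.08). The intervals of these 5 assays exclude falls of the size seen in A12 or B08. That of B04 still takes in a fall larger than that of A06 or B05, and that of A07 one larger than that of B05. The intervals of A04, B03 and B01 take in rises larger than those of A03 and B02.

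In the 12 assays that passed the exact test, all LAD mice lay on one side of the sham mean. In the 9 assays that fell, 50 of 50 LAD values were below the sham mean of their assay, and in the 3 that rose, 20 of 20 were above it. These counts describe the same values that were tested. The SD of relative expression had a median of 0.405 over the assays in sham and of 0.693 in LAD mice.

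Since the reference was read later in LAD mice on average, each difference was also taken on the target Ct alone. The direction held in 18 of 21 assays, the 12 that passed among them, and turned in A04, B01 and B03. Only A03, B02, A11, A12 and B08 passed the exact permutation test on the target Ct, as compared to 12 with the reference. A target Ct alone is not adjusted for the amount of cDNA, and within an assay the LAD reference spanned 0.465 to 9.93 cycles. A call lost on the target Ct therefore does not show that a difference is absent. When the mean of the target readings, each centred on its assay, took the place of the reference, the median difference moved from -1.17 to -0.50. That mean includes the targets that fell, which by itself draws the differences towards a rise. It was also taken over assays by sample number, which is not shown to be the same mouse throughout. On that scale A12, A03 and B02 kept their call, A05 turned to a rise of 1.61 (exact permutation test, p = 0.0238), and A06 had a difference of 0.85. On that scale 4 assays passed, 3 higher and 1 lower in LAD. Whether the later reference reading had a part in the differences was not tested.

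**Figure D3:**
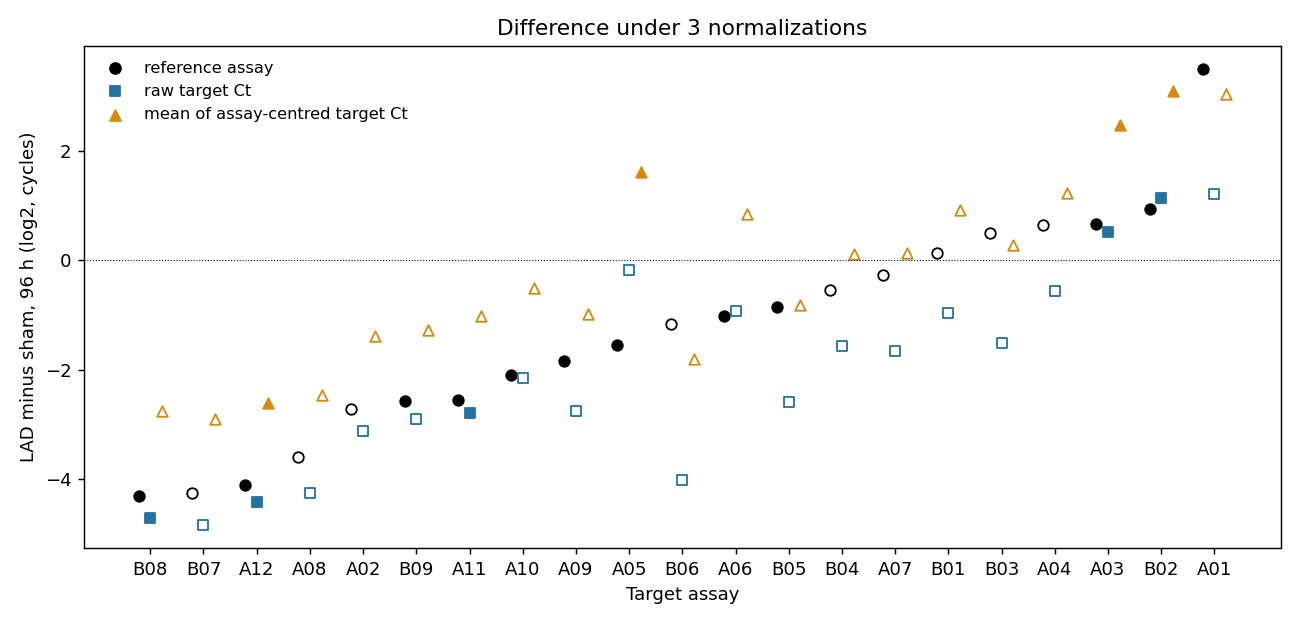
LAD minus sham difference at 96 h (log2, vertical axis) for each target assay (horizontal axis) on 3 scales. Black circles use the reference assay, blue squares the target Ct alone and orange triangles the assay-centred mean of the target readings. Filled symbols have an exact p under 0.05. A12, A03 and B02 are filled on all 3 scales, and A05 is at -1.56 with the reference, -0.18 on target Ct and 1.61 against the target mean.

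The same comparison at 24 h, in 5 other sham and 7 other LAD mice, was set beside it. In limma, 4 of 21 assays (19.0%) passed at 24 h at an adjusted p under 0.05, with A01 higher and A03, B05 and B08 lower. The test of the change itself, the LAD minus sham difference at 96 h minus that at 24 h, passed for 12 of 21 assays (57.1%). It was negative in A05, A08, A09, A10, A11, A12, B06, B07, B08 and B09 and positive in A03 and B02. Thus in 7 of the 9 falls at 96 h the LAD minus sham difference was further down than at 24 h. Such a change can lie in either group. In A05 sham went from -1.41 at 24 h to -0.51 at 96 h and LAD from -1.79 to -2.07. In A12 sham was at 7.68 and 7.75, and LAD went from 7.14 to 3.65.

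B07 changed most between the times, from a difference of 0.84 at 24 h to -4.26 at 96 h (change -5.10, limma, adjusted p = 1.14e-05). With its late readings above Ct 35 left out, the B07 change was -4.83 (limma, adjusted p = 0.000104). A12 went from -0.54 to -4.10 (change -3.56, adjusted p = 0.000138, limma) and A11 from -0.07 to -2.56 (change -2.49, adjusted p = 0.000105, limma). In B08 a fall was already present at 24 h, at -1.81, and was deeper at 96 h (change -2.49, limma, adjusted p = 0.00612). A03 passed at both times in opposite directions, from a fall of -1.27 at 24 h to the rise of 0.66 at 96 h (change 1.93, limma, adjusted p = 0.000105). On the target Ct alone the A03 change was 0.45 (limma, adjusted p = 0.363) and that of B02 was 0.12 (adjusted p = 0.825). All 12 changes had the same sign on the target Ct alone, and 5 of them passed there.

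A01 and B05 differed from sham at both times. The A01 rise was 2.72 at 24 h and 3.50 at 96 h (change 0.78, limma 95% interval -1.06 to 2.62, adjusted p = 0.488), and the B05 difference was -1.17 and then -0.85 (change 0.31, limma 95% interval -0.72 to 1.35, adjusted p = 0.628). These intervals are wide enough to take in a change of 1 log2 unit in either assay.

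**Figure D4:**
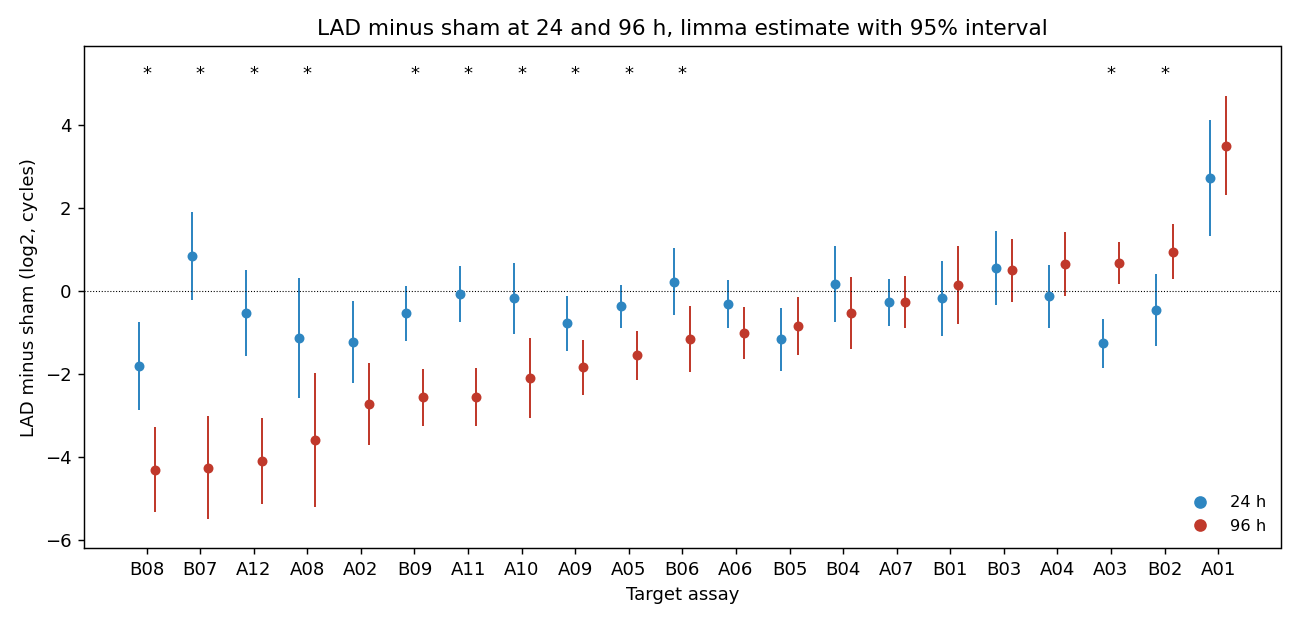
LAD minus sham difference in relative expression (log2, vertical axis) for each target assay (horizontal axis) at 24 h (blue) and 96 h (red). Points are limma estimates with 95% intervals. A star marks the 12 assays whose difference changed between the times at an adjusted p under 0.05. B07, A12 and A11 lie at 0.84, -0.54 and -0.07 at 24 h and at -4.26, -4.10 and -2.56 at 96 h.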

How the data were processed

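The authors deposited 1 Ct per assay and mouse, without normalization, from SYBR green qRT-PCR of reverse transcribed total RNA. A further deposited table holds the authors' own fold changes against sham and was not used. Columns were assigned to mice by the sample numbers in the labels. Relative expression was the reference (B10) Ct directly below a target minus the target Ct, and relative quantity raised 2 to its difference from the sham mean at 96 h. The mean difference between groups was tested by exact permutation, two-sided, with p as 2 times the smaller tail and an unadjusted threshold of 0.05. Adjustment was by Benjamini-Hochberg over the 21 assays. The study's methods used an unpaired comparison of 2 groups at the same threshold. The change from 24 to 96 h was a limma contrast over all 38 mice in 6 groups. These groups were sham, LAD and Myriocin-treated LAD mice at 24 and 96 h. The rule was to name every assay by its code. The members and lists were chosen with earlier results of these data known. Replicates are separately numbered mice per the labels. No counts or depths exist for such readings. Both tests were tested on simulated data. Alternatives were other references, raw Ct, the absolute-difference p, the linear scale, Ct above 35 left out, pooled sham mice, limma, the replicate block and each mouse left out. Python 3.11.15, NumPy 2.4.6, SciPy 1.17.1, pandas 2.3.3, matplotlib 3.10.9, R 4.3.3 and limma 3.58.1 were used.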

Additional observations from a re-analysis of the deposited data

Results flagged for a closer look

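Single mice stood apart from their group by Dixon's criterion in 3 of the 28 groups of 4 to 7 mice, where chance gives about 1 in 20, or 1.4. In B04, sham mouse 3 was lowest at -4.02, with a gap of 0.842 of the group's range, and its reference Ct was 22.3. Without it the difference was -0.77 (exact permutation test, p = 0.214). In B05, LAD mouse 4 was lowest at -4.92, with a gap of 0.632 of the range. Without it the difference was -0.68 and no longer passed (exact permutation test, p = 0.0714). In B06, LAD mouse 2 was highest at -1.77, with a gap of 0.903 of the range, and without it the difference was -1.45 (exact permutation test, p = 0.1, the lowest possible).

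The LAD minus sham difference was not the same at 96 h as at 24 h in 12 assays by the limma test of the change at an adjusted p under 0.05. The change was 1.93 in A03 and 1.404 in B02. It was -1.18 in A05, -2.46 in A08, -1.06 in A09 and -1.90 in A10. It was -2.49 in A11, -3.56 in A12, -1.39 in B06 and -5.10 in B07. It was -2.49 in B08 and -2.03 in B09.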

How the results depend on the processing

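The count of 12 assays was within 1.5 times under most other tests (12 on the linear scale and without Ct above 35, 15 with the p of the absolute difference, 16 with pooled sham mice or with limma and Benjamini-Hochberg, and 10 with limma on raw Ct, an alternative chosen after seeing the data). It became 0 after adjustment of the exact tests and 5 on raw Ct. With the mean of the target Ct it was 3, with the assay-centred target mean (also chosen after seeing the data) 4, and with the mean reference of the sample number 4. The target means and the mean reference were taken over assays by sample number, which is not shown to be the same mouse throughout. With each mouse left out it was 5 to 11, the 5 without sham mouse 2 and 7 without sham mouse 3. With p as 2 times the smaller tail, an assay with 3 sham mice and up to 7 LAD mice cannot pass once a sham mouse is dropped. Limma with adjustment, added after seeing the data, gave 14 to 16 with each mouse left out. The count of 12 changes from 24 to 96 h became 6 on raw Ct, 2 with either target mean and 3 with the mean reference, and 9 to 13 with each mouse left out.

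Numbers shared by sham and LAD mice were not taken as pairs. Same-numbered deviations correlated at -0.493 to 0.117 across assays. This cannot decide on pairing, since a sample number is not shown to be the same mouse in every assay. With the replicate block limma called 13 assays at an unadjusted p under 0.05, 10 of them among the 12, and 10 changes at an adjusted p under 0.05. The reference difference of 0.83 was 0.329 with medians and 0.689 over the numbered pairs with sign flips (exact, p = 0.0625, the lowest possible), and 0.677 to 0.951 with each mouse left out.

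The direction at 96 h turned under some alternative in 7 of 21 assays (A04, A05, A06, A07, B01, B03 and B04), A05 and A06 being among the 9 falls, and that of the change in A08 and B09. The cause was not tested. On raw Ct, A04 was -0.57, B01 -0.96 and B03 -1.52. With the mean reference, B01 was -0.11, B03 -0.82 and A05 0.45. With the mean target Ct, A05 was 1.15 and A06 0.68, and with the assay-centred mean A05 was 1.61, A06 0.85, A07 0.13 and B04 0.11. A04 was -0.0228 with the block. B01 was -0.0930 with pooled sham mice and -0.27 to 0.50 with each mouse left out, below 0 without mouse 3 of sham (-0.27) or of LAD (-0.10). The change in A08 was 0.23 and 0.81 with the target means and 0.00366 with the mean reference, and that in B09 was 0.15 with the mean target Ct. Precision was limited by 3 to 7 mice a group, empty combinations and a technical error that is not known.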

Other observations

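Reference readings that recur link listings across assays in a way that the sample numbers do not. A reading of 27.6 cycles was listed for LAD mouse 2 beside A10 and A11 and for LAD mouse 4 beside A12, and a reading of 23.2 cycles for LAD mouse 1 beside all 3. The reading of 27.6 cycles went with a relative expression of -6.01 in A10, -0.16 in A11 and 4.01 in A12, and that of 23.2 cycles with -6.36, -0.35 and 2.74. A reading of 24.4 cycles was listed for LAD mouse 3 beside A10, at -4.60, and for LAD mouse 5 beside A12, at 4.45. In 12 of the 46 recurring readings all listings had the same sample number.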
